A study of Mus musculus with 4 samples.

Results

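Stretches of RNA that had been assembled wholly inside the introns of protein-coding genes were described across 4 mouse liver libraries. A locus here is a block of overlapping fragments that the authors' assembly placed on the genome, with a start, an end and an FPKM (fragments per kilobase and M mapped fragments, where M stands for 1000000). Loci were taken where they were at least 300 bases long, lay wholly inside a protein-coding gene of GENCODE mouse release M21 and overlapped no exon of any gene. In all, 7265 of 154206 loci met these conditions. They lay in 2656 of the 20178 coding genes that have at least 300 intronic bases, which is 13.2% of them.

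Introns are transcribed with the rest of a gene and are normally spliced out and degraded in the nucleus, so mature mRNA holds none of them. RNA inside an intron can come from unspliced transcripts, from introns kept in the mature RNA, from exons or genes that an annotation does not hold, and from repeats and copies of abundant RNAs. In liver, spliced mRNAs that stay in the nucleus have also been described.

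The mice were C57BL/6 males. There were 2 wild type libraries and 2 of mice in which both copies of hemojuvelin were disrupted (Hjv, listed as Hfe2 in GENCODE M21). Its protein is a co-receptor of bone morphogenetic proteins that hepatocytes need to make the iron hormone hepcidin. All 4 libraries came from liver at 12 weeks of age, after 50 days, begun at 5 weeks, on an AIN-93G diet low in iron (2.5 mg per kg), so both genotypes were iron-restricted and no other diet is compared. The knockout affects every cell of the animal. Nothing in the labels ties a library to an animal of its own, so p-values measure the spread between these libraries only. In bulk liver, fewer cells of a type and less RNA per cell cannot be told apart.

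Some intronic loci begin or run across genes that RefSeq holds and GENCODE M21 does not. Of 5290 intronic regions, each made of the loci of any library that overlap, 335 overlapped such a gene, 268 of them a long noncoding RNA. Among regions seen in 1 library the share was 5.70%, and among the 96 regions seen in all 4 libraries it was 21.9%, but the latter are also longer, with a median of 2040 bases against 425. The RefSeq window around the start site of one such long noncoding RNA, Gm32840, with 250 bases before and 50 bases from the start, lay wholly inside a region that was found in 3 libraries. It is shown because an annotated start lies inside an intronic region there. The start is at 97044140 and the region runs from 97043552 to 97044238, so most of the region lies before the start. The loci have no strand, and whether they belong to Gm32840 was not tested. Capitals mark the 50 bases from the RefSeq start on, and the window is printed in the direction of the noncoding gene from build GRCm38.p6.

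Gm32840, inside Slc38a4, plus strand, chr15:97043890-97044189: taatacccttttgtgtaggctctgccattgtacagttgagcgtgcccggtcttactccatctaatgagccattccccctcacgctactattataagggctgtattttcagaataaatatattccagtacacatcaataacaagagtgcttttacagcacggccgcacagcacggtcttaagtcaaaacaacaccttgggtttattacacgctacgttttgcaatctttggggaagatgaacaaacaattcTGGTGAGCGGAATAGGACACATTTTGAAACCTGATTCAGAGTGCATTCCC

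The Gm32840 window is 43.0% G and C with 9 CG pairs, where the median over 32851 RefSeq windows is 52.7% and 7. It does not hold the letters TATAAA on either strand, which 13.6% of all windows do. The region over the Gm32840 start (chromosome 15, 97043552 to 97044238) lies in Slc38a4, an amino acid transporter gene of liver. It measured 1.54 and 0.429 scaled FPKM in wild type replicates 1 and 2 and 0.363 in knockout replicate 2, while knockout replicate 1 had none. Scaled FPKM are deposited FPKM divided by a factor that sets the coding genes of the libraries level. The single knockout value lay just below the lower wild type value, which is itself far below the higher one.

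The number of intronic loci differed more between libraries than between genotypes. Wild type replicates 1 and 2 held 2498 and 988 of them, and knockout replicates 1 and 2 held 1490 and 2289. Depth was estimated from the step between confidence bounds, taken as 1 fragment, at 87.0, 51.3, 55.0 and 132 M fragments in that order, so the 2 deeper libraries held more loci than the 2 shallower ones, though the deepest did not hold the most (plot of loci by library). Per M fragments, there were 28.7 and 19.3 loci in wild type against 27.1 and 17.4 in knockout. Intronic loci made up 6.01% and 3.77% of all loci in the wild type pair against 2.65% and 7.58% in the knockout pair. The knockout pair thus lay outside the wild type pair on both sides. Wild type averaged 4.89% ± 1.59 and knockout 5.12% ± 3.49 (SD over 2 libraries each), a difference that an exact two-sided permutation test put at p = 1.0, where 2 libraries against 2 cannot give less than 0.333.

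The level of an intronic locus followed the library too. The median was 0.875 and 1.08 FPKM in the wild type libraries, with 2.37 and 0.408 in knockout replicates 1 and 2, and the lowest locus measured 0.191, 0.263, 0.485 and 0.0781 FPKM. The median locus held 24.5, 19.5, 36.5 and 23.0 fragments, so a single intronic locus is a small sample of fragments in each library. Median lengths were 434, 500.5, 404 and 546 bases, and together the loci covered 1354, 634, 731 and 1703 kb.

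The limit of 300 bases removed very different shares of the intronic loci. Of 7831 and 1526 intronic loci of any length in wild type replicates 1 and 2, 31.9% and 64.7% reached it, and of 13047 and 3365 in knockout replicates 1 and 2, 11.4% and 68.0%. Just outside the limit, at 290 to 299 bases, there were 124, 29, 90 and 68 loci with median levels of 1.51, 2.23, 3.83 and 0.889 FPKM, and just inside, at 300 to 309 bases, 105, 36, 83 and 63 loci with 1.28, 2.05, 3.61 and 0.821 FPKM.

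**Figure D1:**
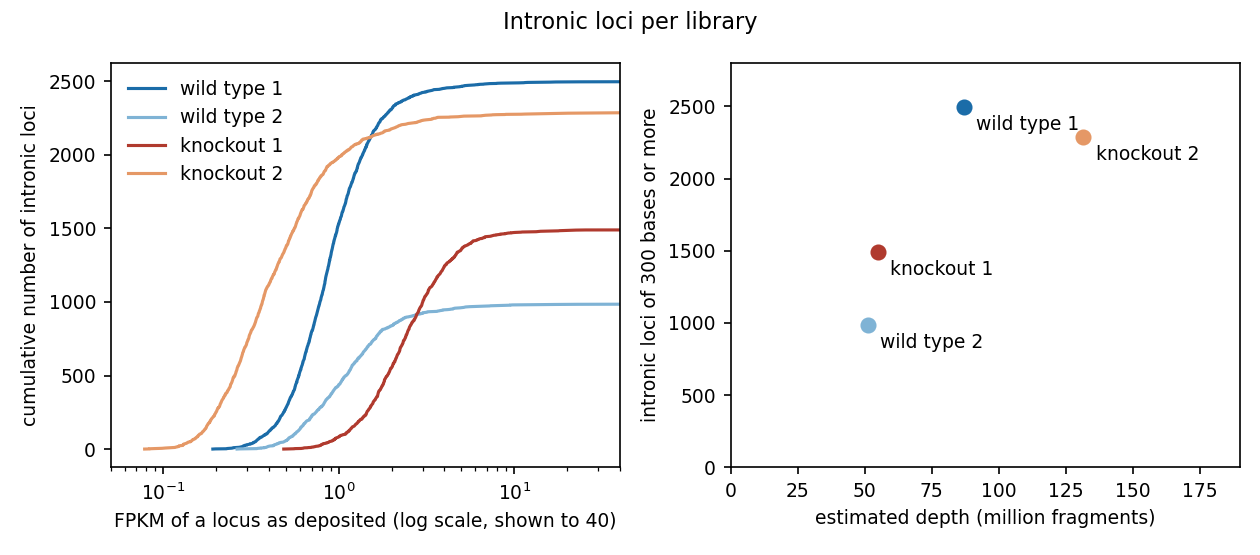
Left, the cumulative number of intronic loci of each library against their deposited FPKM on a log scale; right, the number of loci against the estimated depth, 1 point per library. Knockout replicate 2 lies farthest to the left, with a median of 0.408 FPKM, and knockout replicate 1 farthest to the right, with a median of 2.37 FPKM, and the wild type libraries lie between them.

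As a part of all fragments, intronic loci took 1720 and 1260 of every M fragments in the wild type pair against 1626 and 5048 in the knockout pair. Knockout replicate 2 stood apart through 4 loci of at least 100 FPKM, which held 4083 of those 5048. Without loci of that level the libraries gave 1542, 1050, 1554 and 965, and the genotype means were 1296 ± 348 and 1259 ± 416 (SD over 2 libraries each). The exact permutation test gave p = 0.667 with these loci and p = 1.0 without them.

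Within the host gene, 65.4% of the loci lay between coding exons of the principal transcript, and 15.9% in an intron of its untranslated part. A further 18.7% lay only inside longer models of the gene, 606 of them upstream of the principal transcript and 756 downstream. The first class took 67.3% and 62.0% of the loci in the wild type pair against 67.9% and 63.1% in the knockout pair, which overlap. The median distance to the nearest exon was 825 bases, and 36.3% of the loci came within 500 bases of one. Only 324 loci, 4.46%, lay in more than 1 coding gene, and 487, 6.70%, lay only in genes with a provisional symbol such as Gm20388.

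Hosts were longer than other genes and more often had an expression value. Among genes with a value they were not more highly expressed. The median host had 30.1 kb of introns and the median coding gene without an intronic locus 13.9 kb. Of the hosts 88.9% had an expression value in at least 1 library, against 50.1% of the other genes, and among genes with a value the medians were 4.15 and 5.01 scaled FPKM. Across 20178 genes the number of loci correlated with intronic length with a Spearman coefficient of 0.188. Across the 11141 genes with a value it correlated with expression at -0.04, and with expression at -0.02 once length was held. These are descriptions across genes that share the 4 libraries and their depths.

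With genes split into 4 classes of equal number by level, 17.8% of the lowest class hosted a locus, 28.8% of the second, 25.2% of the third and 13.0% of the highest. Of genes without a value, 3.26% did. In each of 4 length classes the highest level class hosted less often than the second, at 6.48% against 16.4% among the shortest introns and 25.6% against 36.2% among the longest (plot of hosting by level and length). In every library the highest class was below the second, at 6.07% against 17.9% and 3.95% against 6.89% in wild type and at 6.57% against 9.37% and 5.42% against 13.9% in knockout. Per megabase of intron the libraries differed in direction. The highest class had 4.16 loci against 5.31 in the second in wild type replicate 1 and 3.58 against 4.33 in knockout replicate 2, but 2.01 against 1.88 in wild type replicate 2 and 3.49 against 2.54 in knockout replicate 1. By length the share of hosting genes went from 11.3% in the shortest class through 20.4% and 23.1% to 30.0% in the longest. The number of loci per megabase of intron went the other way, from 51.7 in the shortest class to 7.03 in the longest.

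**Figure D2:**
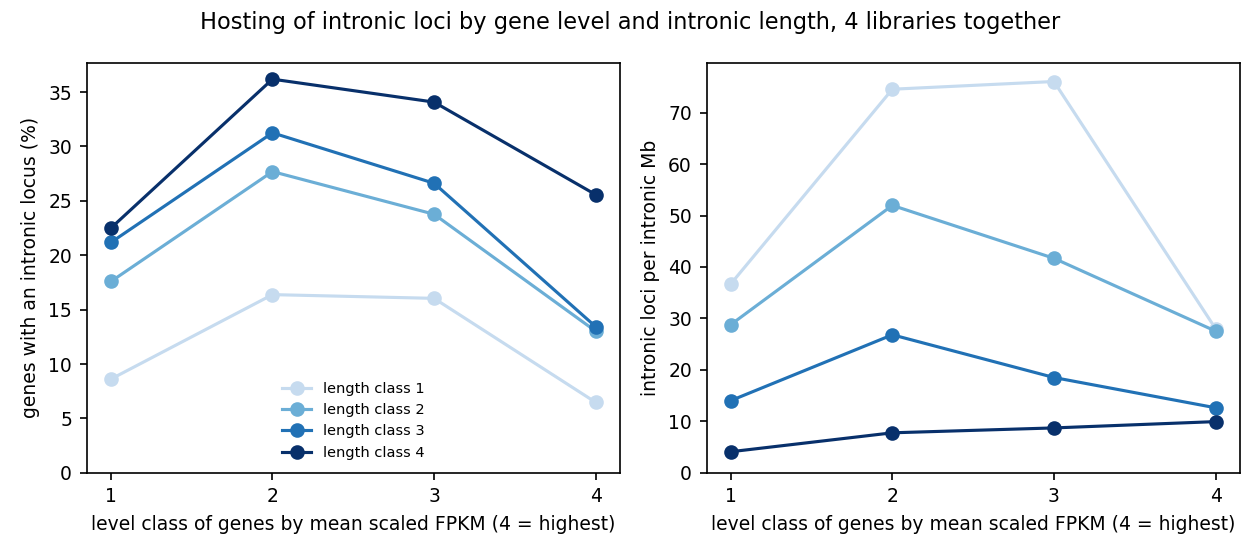
Percent of genes with at least 1 intronic locus (left) and intronic loci per megabase of intron (right) against the level class of the gene, for 4 classes of intronic length from short (class 1) to long (class 4), all libraries together. On the left every line peaks in level class 2 and is lower in class 4. On the right the 2 middle length classes peak in level class 2, the shortest in class 3, at 76.0 loci per megabase against 74.5 in class 2, and the longest in class 4, at 9.95 against 7.78.

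Loci were unevenly spread over hosts. Of the hosts 49.9% had a single locus, and the 103 hosts with at least 10 held 22.2% of all loci. Of the 8 leading hosts 4 were provisional models, with counts given here for the wild type pair and then the knockout pair, in the order of the replicates. Gm20388, a model that spans 4435 kb of chromosome 8 and many other genes, held 17, 10, 15 and 28 loci. Gm4756 held 10, 7, 9 and 15 within 73.7 kb, Gm21992 held 12, 8, 11 and 5 within 68.7 kb, and Gm10130 held 8, 7, 4 and 6 within 39.4 kb. In Gm10130 both knockout counts lay below both wild type counts, and in the other 3 models the counts of the genotypes overlapped.

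Among named genes Rapgef4, a cyclic AMP-activated exchange factor also called EPAC2, held 10, 7, 13 and 1 loci at a mean of 54.4 scaled FPKM. Abcc6, the hepatic transporter behind pseudoxanthoma elasticum, held 6, 4, 13 and 2, and Gucd1 10, 5, 5 and 5. Rtp4 (chromosome 16, 23520291 to 23614222), a receptor transporter gene that interferon induces, held 14, 0, 1 and 18. Counts in knockout replicates 1 and 2 lay on opposite sides of both wild type counts for Rapgef4 and Abcc6, and wild type replicate 2 and knockout replicate 1 were low for Rtp4.

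Lists of genes were counted, 8 in all, against the 13.2% of all eligible coding genes that host a locus. That share includes genes without an expression value, of which 3.26% host. Of the 11141 genes with a value 2361 host, and their 4 level classes range from 13.0% to 28.8%. The lists were not matched for level, so shares inside that range do not stand out from genes with a value. Genes with detained introns or nuclear-retained mRNA, many of which encode splicing factors, hosted loci in 12 of 34 cases (35.3%), led by Luc7l2 with 0, 1, 2 and 2 loci, Tra2a with 3, 0, 1 and 1, Clk4 with 2, 0, 0 and 1 and Ddx39b with 0, 2, 1 and 0. None of the 12 had a locus in all 4 libraries. Liver transcription factors and nuclear receptors hosted in 11 of 30 cases (36.7%), led by Hnf4a with 4, 5, 7 and 8, Nr0b2 with 2, 1, 2 and 0, Ppara with 0, 1, 6 and 0 and Esrra with 4, 3, 0 and 0. Their introns are long, with a median of 48.3 kb against 15.6 kb over all eligible genes, while those of the detained list have a median of 7.42 kb.

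Of 36 genes in cytochrome P450 and carboxylesterase clusters 6 hosted (16.7%), and the drug-metabolizing Cyp2c29 held 9, 2, 4 and 1 of their 23 loci. Members of these clusters have close copies, so their loci are uncertain. Ces3b, Cyp2c67 and Cyp2c37 had 2, 2 and 1 loci. The male-biased list hosted in 3 of 14 cases (21.4%): complement gene C6 with 3, 1, 1 and 1 loci, and Cyp2d9 and Selenbp2 with 1 each in knockout replicate 2. Fatty acid synthesis genes did so in 3 of 20 (15.0%): the carboxylase gene Acaca with 1, 1, 3 and 1, its regulator Srebf1 with 1, 2, 1 and 0, and the acyltransferase gene Gpam with 6, 0, 0 and 3. Plasma protein genes hosted in 1 of 33 cases (3.03%), and coding hosts of small nucleolar RNAs in 0 of 24, with median introns of 8.14 and 1.88 kb.

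Of 44 iron and heme genes 7 hosted a locus (15.9%), with 8 loci in all and no gene seen in more than 1 library. In wild type these were Smad4, a mediator of the BMP signal, with 2 loci in replicate 1, Smad1, which carries the same signal, and Neo1, whose protein neogenin binds hemojuvelin, with 1 each in replicate 1, and the heme synthesis gene Alas1 with 1 in replicate 2. In knockout they were Tfrc, the transferrin receptor, and the iron transporter gene Slc11a2 with 1 each in replicate 2, and transferrin (Trf) with 1 in replicate 1. Hjv (chromosome 3, 96525172 to 96529210) had none in any library, with 2.01 kb of intron. Its exons checked the labels at 9.22 and 29.6 scaled FPKM over 45.1% and 81.5% of the transcript in wild type, nothing in knockout replicate 1 and 0.236 over 14.3% of the transcript in knockout replicate 2. Hepcidin (Hamp), with 1.25 kb of intron, and the iron exporter gene Slc40a1, with 9.46 kb, had none either. Tfrc itself measured 15.5, 11.3, 2.73 and 2.03 scaled FPKM.

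Markers of liver cell types, which were summed over each list, place all 4 libraries as liver. Hepatocyte genes came to 12937 and 13276 scaled FPKM in wild type against 14985 and 10648 in knockout, although albumin (Alb) had no locus in any library. Sums for Kupffer cells ranged from 106 to 168, for sinusoidal endothelium from 61.0 to 80.2, for stellate cells from 70.5 to 98.2, for bile duct cells from 1.90 to 3.07 and for lymphocytes from 2.39 to 3.22. Erythroid genes came to 79.2 and 0 in wild type against 122 and 0 in knockout, with no locus for Hba-a1. The part of cell makeup in the intronic values was not tested.

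Most intronic regions were seen in 1 library alone. Of the 5290 regions 4225 were seen in 1 library, 724 in 2, 245 in 3 and 96 in 4. Counted as loci, 39.0% and 63.9% in wild type replicates 1 and 2 lay in a region that another library also had. In knockout replicates 1 and 2 these shares were 47.0% and 32.0%. Regions seen in more libraries had higher levels, with a median locus of 0.805 FPKM for 1 library and 1.32 FPKM for 4, and lay farther from exons, with 41.2% and 13.5% of their loci within 500 bases of one. They lay more often in provisional models, with 5.04% and 18.5% of loci, and less often between coding exons of the principal transcript, with 71.8% and 51.2%.

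A region in which a library lacked an intronic locus of at least 300 bases often held another locus. In knockout replicate 2, 80.0% of the 3074 regions that it lacked overlapped a locus that touched an exon, and 16.7% overlapped no locus. Any overlap counted, whatever the length of that locus or the part of the region it covered. Regions that also held an intronic locus of less than 300 bases were counted under the latter. In knockout replicate 1, 31.7% of the 3933 regions it lacked overlapped a locus that touched an exon. There 19.6% held an intronic locus of less than 300 bases and 48.7% held nothing. The wild type libraries were between these, with 49.0% and 53.6% overlapping a locus that touched an exon and 40.2% and 44.1% with nothing (plot of what each library holds). The share with such an overlap thus differed most between the 2 knockout libraries.

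**Figure D3:**
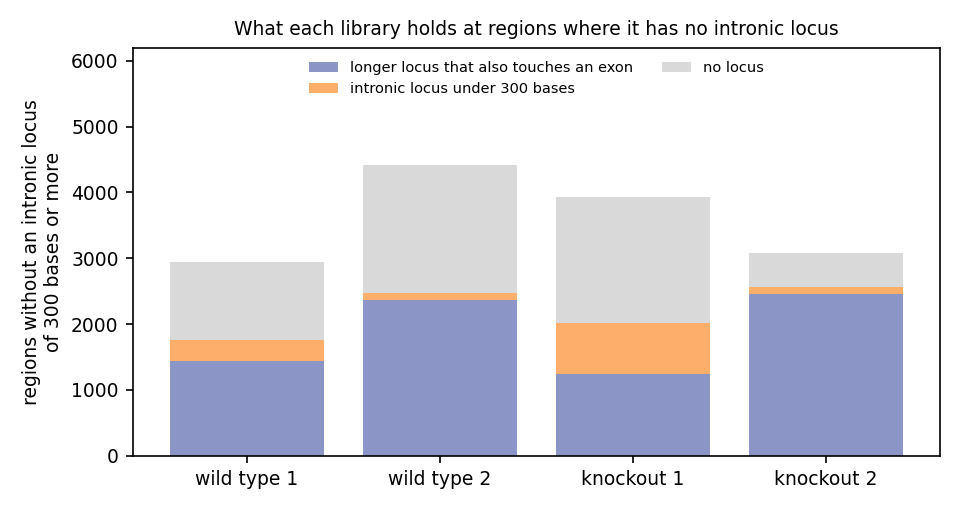
Number of regions in which each library has no intronic locus of at least 300 bases, split by what it has there. The class drawn as a longer locus holds any overlap with a locus that touches an exon, whatever its length, where no short intronic locus was found. It makes up 2458 of 3074 regions in knockout replicate 2 and 1247 of 3933 in knockout replicate 1.

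The highest region seen in all 4 libraries was 336 bases in intron 2 of Cdk8 (chromosome 5, 146260991 to 146261326), the gene of a kinase of the Mediator complex. It measured 428 and 557 scaled FPKM in wild type, and knockout replicates 1 and 2 had 442 and 19118. The last value is far above the other 3, which lie close together. The deposited FPKM of so short a locus lies above its own bounds, at 400 FPKM in wild type replicate 1, bounded by 165 and 178, and at 18250 in knockout replicate 2, bounded by 8032 and 8101. Cdk8 itself measured 11.3, 11.5, 13.4 and 3.09 scaled FPKM. For comparison, the locus at a RefSeq 18S ribosomal RNA copy, Rn18s-rs5, measured 695 and 638 in wild type against 1391 and 754 in knockout. The origin of the fragments in the Cdk8 region was not tested.

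The same library held 3 other intronic loci above 1000 FPKM, chosen here after their values were seen. They lay in Camk1d (chromosome 2, 5379040 to 5379376, 3111 FPKM), Spata5 (chromosome 3, 37481363 to 37481779, 2692 FPKM) and Tmtc2 (chromosome 10, 105238134 to 105238549, 1253 FPKM). At the Spata5 place the other libraries also held a high locus, of 278, 269 and 273 bases and 2166, 2367 and 6327 FPKM, which the limit of 300 bases leaves out. At the Camk1d and Tmtc2 places no other library had a separate intronic locus.

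Other high regions were steadier. In intron 6 of Nrp1 (chromosome 8, 128453109 to 128455544), the gene of the semaphorin and VEGF co-receptor neuropilin 1, 2436 bases that overlap the RefSeq noncoding gene Gm32643 measured 25.1 and 25.0 scaled FPKM in wild type against 18.7 and 26.1 in knockout. The Nrp1 gene measured 22.6, 15.1, 24.5 and 15.6, so the region was about as high as its host. In intron 2 of Rmdn2 (chromosome 17, 79622836 to 79623417) a region measured 10.6 and 14.2 in wild type against 15.9 and 13.1 in knockout. For both regions the genotypes overlapped.

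In the polarity gene Pard3 (chromosome 8, 127434879 to 127436784) a region that overlaps the RefSeq noncoding gene LOC115486907 measured 5.31 and 4.10 in wild type against 13.2 and 2.69 in knockout. In the adhesion gene Nectin3 (chromosome 16, 46442898 to 46444133) a region measured 3.80 and 4.96 against 8.23 and 2.35. In both genes knockout replicate 1 had the highest value and knockout replicate 2 the lowest, but the libraries averaged unlike bases. These came to 1846, 1341, 378 and 1753 bases in Pard3 and 1180, 364, 341 and 797 in Nectin3. The Pard3 value of knockout replicate 1 also lies above its bounds of 5.95 and 8.76. A region of 1810013L24Rik (chromosome 16, 8845937 to 8852123) measured 5.93 and 5.07 in wild type against 4.40 and 3.72 in knockout, without overlap, with a limma log2 difference of -0.43 (SE 0.24) and an adjusted p of 0.544.

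Knockout and wild type were compared over the 96 regions seen in all 4 libraries, in 1 fit with 7949 coding genes by limma on log2(scaled FPKM + 0.1), which understates the change of low features. No region passed an adjusted p of 0.05, the smallest being 0.397, and neither did any of the 8045 features (0%). At an unadjusted p under 0.05 there were 4 regions higher and 2 lower in knockout, 6.25% of the regions, where 11.1% of all features of the fit reached it (5.87% higher and 5.22% lower). The groups did not overlap in 14 regions that were higher and 5 that were lower, 19.8% of the regions against 45.7% of all features (22.2% higher and 23.5% lower). The median log2 difference was 0.24 over the regions and 0.02 over the genes, with 63 of 96 regions above 0.

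The 2 knockout libraries lay on opposite sides of wild type. Median levels over the 96 regions were 1.14 and 1.26 scaled FPKM in wild type, and knockout replicates 1 and 2 had 2.14 and 0.843. Knockout replicate 1 was the highest library in 68 of the 96 regions, and knockout replicate 2 the lowest in 52. Each value averages only the bases that a library assembled, and the FPKM of a short locus can lie above its bounds. These ranks thus compare unlike bases. With the midpoint of the bounds in place of FPKM the median log2 difference between genotypes was 0.09 over 89 regions. Without knockout replicate 1 the median log2 difference was -0.55 over 160 regions, and without knockout replicate 2 it was 0.78 over 179 regions (plot of each knockout library). The direction of the genotype difference over intronic regions thus rests on which knockout library is used.

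**Figure D4:**
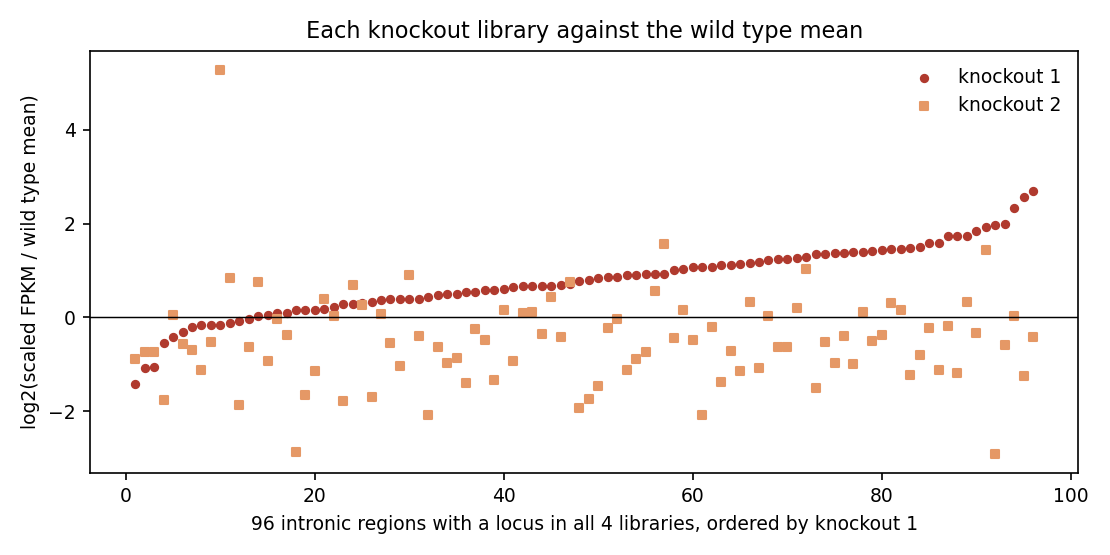
Log2 ratio of each knockout library's scaled FPKM to the mean of the wild type libraries, for the 96 regions seen in all 4 libraries, in the order of knockout replicate 1. Most points of knockout replicate 1 lie above 0 and most of knockout replicate 2 below; the Cdk8 region is the highest point of knockout replicate 2.

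Of the 96 regions 3 were at least 2-fold higher in knockout without overlap and 2 at least 2-fold lower, where 4.14% and 2.04% of all features of the fit were. In intron 1 of Szrd1 (chromosome 4, 141134845 to 141135318) the region measured 5.83 and 5.91 scaled FPKM in wild type against 11.1 and 17.5 in knockout, from 149, 52.5, 148 and 441 fragments. The log2 difference was 1.24 (SE 0.28) with a limma p of 0.00735 and an adjusted p of 0.397. The Szrd1 gene measured 12.3, 11.5, 11.2 and 19.8, so the host was higher in knockout replicate 2 alone.

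The second was a region of 9989 bases in Hnf4a (chromosome 2, 163527565 to 163537553), the nuclear receptor gene that maintains hepatocyte identity. Hnf4a has a distal and a proximal promoter, and the region lies only inside the longer models, upstream of the principal transcript. It measured 0.639 and 0.587 scaled FPKM in wild type against 2.34 and 1.66 in knockout, with 4 and 5 loci in wild type against 4 and 7 in knockout. The log2 difference was 1.54 (SE 0.40), with an adjusted p of 0.412 by limma. The gene itself measured 106, 94.7, 61.3 and 138, with knockout values on both sides of wild type.

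The third, in intron 13 of Farp2 (chromosome 1, 93581371 to 93593298), the gene of a guanine nucleotide exchange factor, was the longest region, at 11928 bases, and overlaps the RefSeq pseudogene Gm18874. It measured 2.00 and 1.52 in wild type against 4.28 and 3.60 in knockout, a log2 difference of 1.13 (SE 0.29) with an adjusted p of 0.412 by limma. Another region with an unadjusted p under 0.05, in intron 3 of Agxt2 (chromosome 15, 10376168 to 10376579), the gene of a mitochondrial aminotransferase, measured 11.4 and 10.2 in wild type against 17.2 and 14.4 in knockout, with an adjusted p of 0.446 by limma.

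Lower in knockout was a region in intron 27 of Madd (chromosome 2, 91152653 to 91153063), the gene of a Rab exchange factor, at 4.10 and 4.06 scaled FPKM in wild type against 1.52 and 2.21 in knockout, from 73.5, 52.5, 16.5 and 96.4 fragments. The log2 difference was -1.11 (SE 0.30) with an adjusted p of 0.412 by limma. Madd itself measured 3.33, 3.22, 4.26 and 4.70, higher in both knockout libraries, and the Madd region was the only one of 59 with a low unadjusted limma p relative to its host, at 0.0223, or 0.964 after adjustment.

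The Phldb2 region (chromosome 16, 45891968 to 45896830), in a gene of a cytoskeletal anchor protein, measured 4.33 and 4.10 in wild type against 2.87 and 1.23 in knockout, with an adjusted p of 0.462 by limma. The Phldb2 gene measured 9.36 and 8.53 in wild type against 8.18 and 7.42 in knockout. Knockout replicate 1 also had a locus of 232 bases in the region, which the length limit leaves out. Its deposited value was 15.5 FPKM, above its bounds of 2.43 and 5.25. In knockout replicate 2 the region is made of 3 loci, of which the longest overlaps the other 2. The shorter 2 carry the status LOWDATA, the only 2 of the 7265 loci that do. A region of Gm20388 (chromosome 8, 124148678 to 124150363) had the other low p, at 4.01 and 4.88 in wild type against 2.11 and 2.66 in knockout, with an adjusted p of 0.427 by limma.

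The other long regions seen in all 4 libraries lay in Gramd1c (chromosome 16, 44046208 to 44057101) at 0.670, 0.759, 1.15 and 0.533 scaled FPKM, in Gm4756 (chromosome 12, 72640704 to 72647054) at 1.50, 2.18, 3.36 and 1.78, and in Gm21992 (chromosome 19, 4770292 to 4776609) at 0.553, 0.617, 1.50 and 0.408. In each, knockout replicate 1 had the highest value, but the libraries averaged unlike bases. These came to 6972, 992, 671 and 10894 bases in Gramd1c, 388, 569, 3077 and 6234 in Gm4756, and 3361, 702, 1657 and 6253 in Gm21992. Knockout replicate 2, the deepest library, held the most fragments in each, at 728, 1308 and 320.

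Relative to the host gene, 59 regions could be compared in all 4 libraries. The median region stood at 27.9% and 25.5% of its host's FPKM in wild type and at 40.7% and 19.4% in knockout replicates 1 and 2. In 50 of the 59 the region was below its host in every library, and in 1 above it in every library. No region passed an adjusted p of 0.05 relative to its host, the smallest being 0.964 by limma, and 1 had an unadjusted p under 0.05, 1.69% of the regions compared. The median log2 difference relative to host was 0.09. The knockout libraries again lay on opposite sides of wild type.

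Regions seen in both libraries of 1 genotype and in neither of the other numbered 127 for wild type and 96 for knockout. Pairs of 1 wild type and 1 knockout library alone shared 134, 242, 61 and 64 regions, a range that holds both counts. Only 25 of the 127 had no locus of any kind in either knockout library, and only 37 of the 96 in either wild type library. These counts have no test, because a library without an intronic locus often holds a locus that touches an exon in its place (plot of the named regions).

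The clearest case by fragments was 6013 bases in intron 3 of Camk2b (chromosome 11, 6005473 to 6011485), the gene of a calmodulin-dependent kinase subunit of neurons. Wild type replicates 1 and 2 measured 61.3 and 92.6 scaled FPKM there, from 29183 and 15990 fragments, which was above the gene itself at 2.42 and 4.10. Each knockout library had a single short locus, of 108 and 105 bases, with bounds of 1.35 to 4.88 and 0.724 to 2.24 FPKM and about 18.5 and 20.5 fragments. The deposited FPKM of those short loci, outside their bounds, are not used. No longer locus lay over the region in either knockout library. The region was thus high in both wild type libraries and near the floor of detection in both knockout libraries. It was named because wild type alone had it, so this contrast is part of how it was picked. The Camk2b gene itself had no value in either knockout library.

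In intron 3 of Jarid2 (chromosome 13, 44869571 to 44870027), the gene of a Polycomb complex subunit, 457 bases measured 480 and 557 scaled FPKM in wild type, from 10801 and 7210 fragments, where the gene measured 2.05 and 2.09. A longer locus that touches exons of the gene lay over it in all 4 libraries, beside the separate locus in wild type and alone in knockout. The host measured 2.62 and 1.94 in knockout, and the level of the 457 bases cannot be read there. Regions in the folate enzyme gene Ftcd (chromosome 10, 76582874 to 76583785), at 7.15 and 10.3, and the nucleoside transporter gene Slc29a1 (chromosome 17, 45592943 to 45593331), at 4.81 and 7.34, were also among the 5 highest. At the Ftcd place knockout replicate 1 had a locus of 181 bases at 37.4 scaled FPKM, which the length limit leaves out. Knockout replicate 2 had a locus there that touches an exon. Both knockout libraries had a locus that touches an exon overlapping the Slc29a1 place.

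Of regions seen in the knockout libraries alone, the highest was in intron 2 of Kyat3 (chromosome 3, 142712722 to 142713378), the gene of a kynurenine aminotransferase, at 16.5 and 33.3 scaled FPKM, and another lay nearby in the same intron (142714784 to 142715128) at 11.8 and 7.85. In both wild type libraries each of these overlapped a locus that touches an exon. Kyat3 itself measured 96.3 and 98.2 in wild type against 33.7 and 61.0 in knockout. A region in intron 7 of the organic anion transporter gene Slc22a30 (chromosome 19, 8340034 to 8341749) measured 21.3 and 17.2 in knockout. Wild type replicate 1 had a locus of 299 bases there at 16.9 scaled FPKM, 1 base under the limit, so its absence from wild type replicate 1 follows from the length limit. Regions in Cmah (chromosome 13, 24338434 to 24339493), the gene of the enzyme that makes N-glycolylneuraminic acid, at 6.41 and 5.01, and Ttc19 (chromosome 11, 62322058 to 62323311), a gene needed for mitochondrial complex III, at 9.15 and 1.84, also overlapped loci that touch an exon in at least 1 wild type library.

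**Figure D5:**
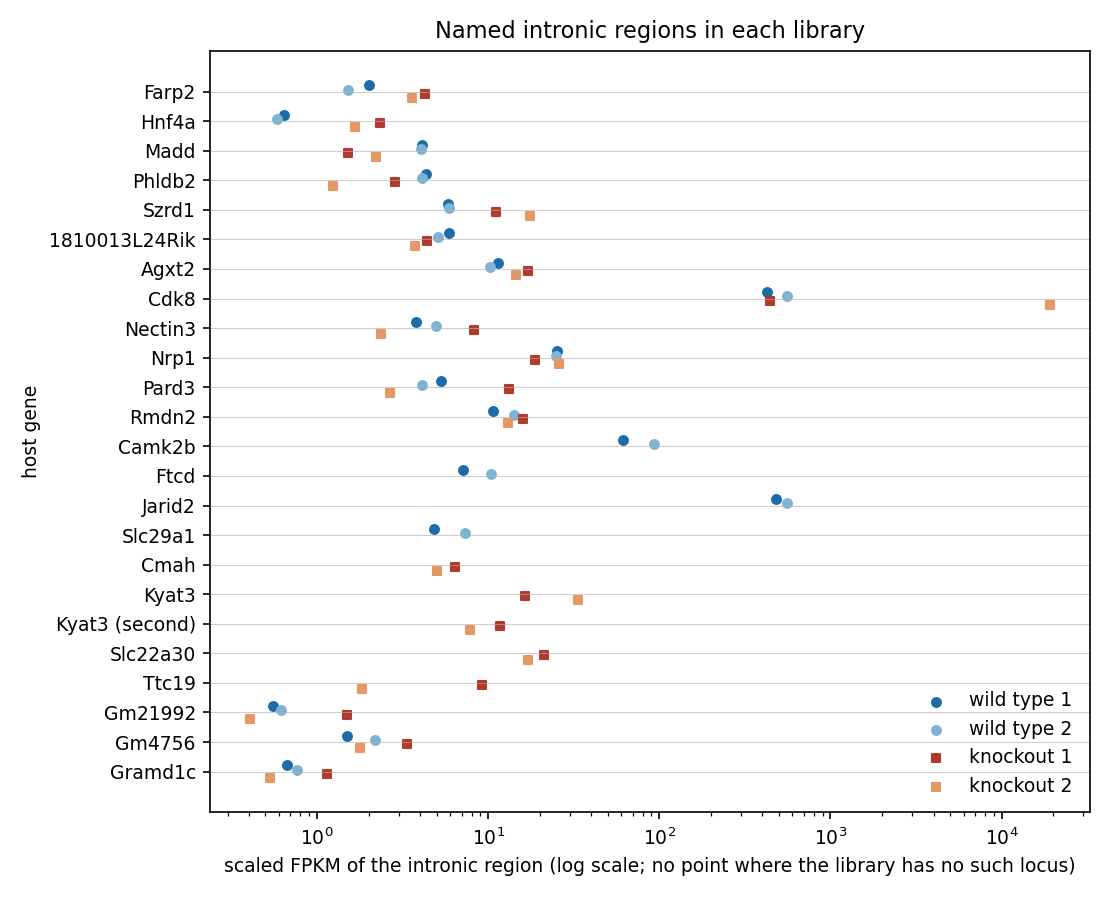
Scaled FPKM of each named intronic region in each library, on a log scale, with circles for wild type and squares for knockout and no point where a library has no intronic locus of at least 300 bases. The Cdk8 region in knockout replicate 2, at 19118, stands apart from the other 3 libraries at 428 to 557, and the Camk2b and Jarid2 regions have points in wild type alone.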

How the data were processed

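Liver RNA was sequenced from TruSeq libraries on an Illumina HiSeq instrument, per the labels' protocols. Per the submitters' processing notes, FastQC, TopHat and Cufflinks were used, with no versions, and build mm9. The coordinates fit GRCm38. The deposited values are FPKM with confidence bounds, also in FPKM, made by the authors for loci assembled in each library on its own, without gene names or strand. Starts count from 0 and were raised by 1.

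Depth was taken as 1 fragment per step between bounds, of which 99.8% to 100.0% were whole multiples within 0.05. Fragments in a locus are the midpoint of its bounds times length and depth. They cover counting error only. Gene values are the mean FPKM of a gene's loci weighted by exonic bases, used where these covered 50% or more of a coding transcript. The scale factors, medians of ratios over coding genes, were 0.935, 0.915, 1.20 and 0.955.

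Loci of any library that overlap by at least 1 base were joined into regions, whose value is the length-weighted mean FPKM of the loci. Features with 0.1 scaled FPKM in 2 libraries were tested by limma 3.58.1 in R 4.3.3 with a trend, two-sided, with 2 residual degrees of freedom (2.91 prior), adjusted by Benjamini and Hochberg at 0.05. Other values were computed in Python 3.11.15 with scipy 1.17.1.

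Named hosts and regions are the 8 hosts with most loci, the 8 highest and 5 longest regions in all 4 libraries, up to 6 regions per direction, by smallest p if none pass, among 2-fold differences without overlap, the 5 highest per genotype alone, up to 4 leading hosts per list, and Hjv, Hamp, Tfrc and Slc40a1. Regions named by p alone were added after their values were seen. The members and lists were chosen with earlier results of these data known. No genome sequence was used, and the only intronic bases printed are those of a RefSeq start window. Some items that these rules select are not reported here.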

Additional observations from a re-analysis of the deposited data

How the results depend on the processing

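The number of intronic loci, 7265, was 3106 at a minimum of 500 bases, 711 at 1000, 11901 at 200 (a limit added after the data were seen) and 4626 with no exon within 500 bases. The share of loci, 0.23 percentage points higher in knockout, was lower by a difference of -1.07 among loci of at least 0.5 FPKM and ranged from -2.24 (without knockout replicate 2) to 2.69 (without knockout replicate 1) with 1 library left out. The fragments in them, 1847 of every M higher in knockout, differed by -158 at 500 bases and -229 at 1000 and ranged from 136 (without knockout replicate 2) to 3558 (without knockout replicate 1) with 1 library left out.

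Regions of both wild type libraries alone numbered 83 with no exon within 500 bases, against 127. Regions of both knockout libraries alone, 96, numbered 62 at 0.5 FPKM, 38 at 500 bases and 184 at 200, where the wild type pair had 162 and thus fewer.

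The count of regions past the adjusted threshold stayed at 0 except in 2 settings. Setting absent regions to 0 writes 0 also where a library holds a longer or a shorter locus. Regions seen in 1 genotype alone then get 0 in the other, which fixes their direction. Knockout had a longer locus at Jarid2 and wild type at Slc22a30, so their calls follow from the zeros. With absent regions set to 0 there were 152 at an unadjusted p under 0.05, 323 without overlap and 111 relative to host. The count past the threshold was then 3 of 1065 (Jarid2, Camk2b, Slc22a30). Without knockout replicate 1 it was 4 of 160: Cdk8 and Szrd1 higher, and Efna3 and Mast3 lower, the last at 3.86 and 3.42 in the wild type pair, with 0.496 in knockout replicate 2. Relative to host it was then 4 of 103 (Cdk8, Mast3, Asic5, Gramd1c). For Gramd1c this follows mainly from the host value. The gene measured 1573 scaled FPKM in knockout replicate 2, where the wild type pair had 12.0 and 8.83. The Gramd1c region itself stood at 0.533 in that library, close to the 0.670 and 0.759 of the wild type pair. The source of the high host value was not tested. With 1 library left out the lone library is assumed to vary like the others. The count past the threshold then ranged from 0 to 4, at an unadjusted p under 0.05 from 3 to 72, without overlap from 45 to 146, past the threshold relative to host from 0 to 4 and at an unadjusted p relative to host from 0 to 20. The unadjusted count of 6 was 1 in a fit over the regions alone and 12 at 200 bases, and the count without overlap, 19, was 12 with no exon within 500 bases and 33 at 200. The unadjusted count relative to host, 1, was 2 with quantile normalization and 0 with no exon within 500 bases, with the midpoint of the bounds (added after the data were seen) and at 200 bases.

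The median log2 difference of 0.24 was -0.24 with absent regions set to 0 and ranged from -0.55 to 0.78 with 1 library left out; relative to host, 0.09 became -0.23 and ranged from -0.44 to 0.58. On the deposited scale the median of all genes moved from 0.02 to 0.22 and that of the regions to 0.44.

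Of 311 values of 15 named regions under alternatives, 294 kept their direction and stayed uncalled. The reversals of Nrp1 (0.0285 on the deposited scale) and Nectin3 (-0.0108 with quantile normalization, -0.0346 with the highest locus and -0.0389 with the midpoint) lie near 0. Those with the highest locus were Pard3 at -1.21 and Gramd1c at -0.42, the latter -0.00842 with the midpoint. The others came with a library left out: Nrp1 then ranged from -0.42 to 0.0585, Pard3 from -0.77 to 1.49, Nectin3 from -0.86 to 0.91, Gramd1c from -0.36 to 0.62, Gm4756 from -0.0216 to 0.86 and Gm21992 from -0.43 to 1.22, each lowest without knockout replicate 1 and highest without knockout replicate 2 except Nrp1, and Cdk8 from -0.14 without knockout replicate 2 to 5.29 without knockout replicate 1. The cause was not tested.

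Same-numbered libraries deviated together with a correlation of 0.08 over 8045 features. The labels give nothing that pairs them, and 1 correlation from 4 libraries cannot decide whether they share a batch. With the replicate block 0 regions passed the adjusted threshold, 6 had an unadjusted p under 0.05 and 19 did not overlap, and the Szrd1, Hnf4a and Madd differences stayed at 1.24, 1.54 and -1.11. Leaving out inflated loci removed no member. Depth limits single loci to a median of 19.5 to 36.5 fragments.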
